A study of Mus musculus with 8 samples.

Results

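The Trem genes encode receptors with an immunoglobulin-like domain that are made mainly by myeloid cells and platelets, and in the mouse they lie side by side on chromosome 17. The 6 genes described here, Trem1, Trem3, Treml4, Treml2, Trem2 and Treml1, were taken by name from 55413 annotated genes, and 1056 protein-coding genes of chromosome 17 serve as their closest background. The study names Treml4 as an example of an H3K9me2-marked gene, so the H3K9me2 of Treml4 is given below as a description. Chromatin immunoprecipitation followed by sequencing (ChIP-seq) of H3K9me1, H3K9me2 and H3K9me3 was performed in mouse embryonic fibroblasts (MEFs) labelled wild type (WT). The 8 samples were 2 replicates each of sonicated input DNA and of the 3 marks. The cells that the study calls WT are its E1c line, in which Eset1 (Setdb1) carries floxed exons that tamoxifen can delete, and every group shares this allele. Input, H3K9me1, H3K9me2 and H3K9me3 groups do not differ in treatment, time or genotype by their labels, so the comparisons are between marks and between genes, not between conditions. The line is 1 clone, picked by the study for high Cre activity, and a region list cannot be used to check that the cells are fibroblasts.

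Most Trem receptors have a short cytoplasmic tail and signal through the adaptor DAP12, encoded by Tyrobp, which recruits the kinase Syk. Methyl groups on lysine 9 of histone H3 mark heterochromatin and repressed genes. The di- and trimethylated forms are the classical repressive states, laid down mainly by G9a and Glp (H3K9me2) and by the Suv39h and Eset enzymes (H3K9me3), while H3K9me1 can also be found at transcribed genes. RNA was not measured in these samples, so the values below are positions of chromatin regions and not levels of expression. The study did sequence RNA of the same line and of mutants that lack these enzymes, in other samples. It shows Treml4 there as an example gene, and those RNA data were not used here.

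Each mark was represented by 1 list of enriched regions with a chromosome, a start and an end. The lists hold no height, p-value or value per replicate, so the values have no SD and no test was made. Read depth is unknown from the lists. All starts and ends fell on a grid of 750 bp, and smaller distances to a region border therefore carry the error of the grid. On chromosome 17 the lists covered 26.5% of the known bases with H3K9me1, 16.9% with H3K9me2 and 22.4% with H3K9me3.

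The 5′ end of the cluster carried H3K9me2 and its 3′ end did not. On GRCm38 the cluster ran from the start of Trem1 at 48232768 to the end of Treml1 at 48367176, over 134 kb, with all 6 genes on the plus strand. In chromosomal order, Trem1, Trem3, Treml4 and Treml2 each had an H3K9me2 region within 1 kb of an annotated transcription start site, whereas Trem2 and Treml1 had none. H3K9me3 was found at the start sites of Trem1 and Treml2, and H3K9me1 only at Treml1 among the 6. Thus Trem3 and Treml4 carried H3K9me2 alone, Trem1 and Treml2 carried H3K9me2 together with H3K9me3, Treml1 carried H3K9me1 alone and Trem2 was free of all 3 marks. H3K9me2 alone depends on the width of the window, since with 5 kb either side of a start site Trem3 and Treml4 carried all 3 marks and no gene had H3K9me2 alone.

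In counts, H3K9me2 met a start site of 4 of the 6 genes, H3K9me3 of 2 and H3K9me1 of 1. Over all annotated genes the corresponding shares were 11.5% for H3K9me2, 12.0% for H3K9me3 and 21.4% for H3K9me1. Among protein-coding genes on chromosome 17 they were 15.8%, 14.1% and 52.4%, respectively. The 6 genes are neighbours that share regions and are not independent of each other. Treml4 was listed with its H3K9me2 already known. Without Treml4, H3K9me2 was at 3 of 5 genes, H3K9me3 at 2 and H3K9me1 at 1. H3K9me2 alone, seen at 2 of the 6, was present at 1.21% of all genes and at 1.70% of the chromosome 17 genes. Without Treml4 it was left at 1 of 5, Trem3, whose call rests on 724 of 2001 bp. A start free of every mark, seen at 1 of the 6, was found for 71.2% of all genes and for 39.6% of those on chromosome 17.

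Over gene bodies, from annotated start to annotated end, H3K9me2 met 4 of the 6 genes, H3K9me3 met 3 and H3K9me1 met 3. The background on chromosome 17 was 25.1% of protein-coding genes for H3K9me2, 24.3% for H3K9me3 and 68.0% for H3K9me1. The median covered share of the body over the 6 genes was 39.7% for H3K9me2, compared with a median of 0% over chromosome 17. For H3K9me1 the order was the other way, with a median of 0.585% in the cluster and 35.7% on the chromosome. H3K9me3 had medians of 3.8% and 0%.

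**Figure D1:**
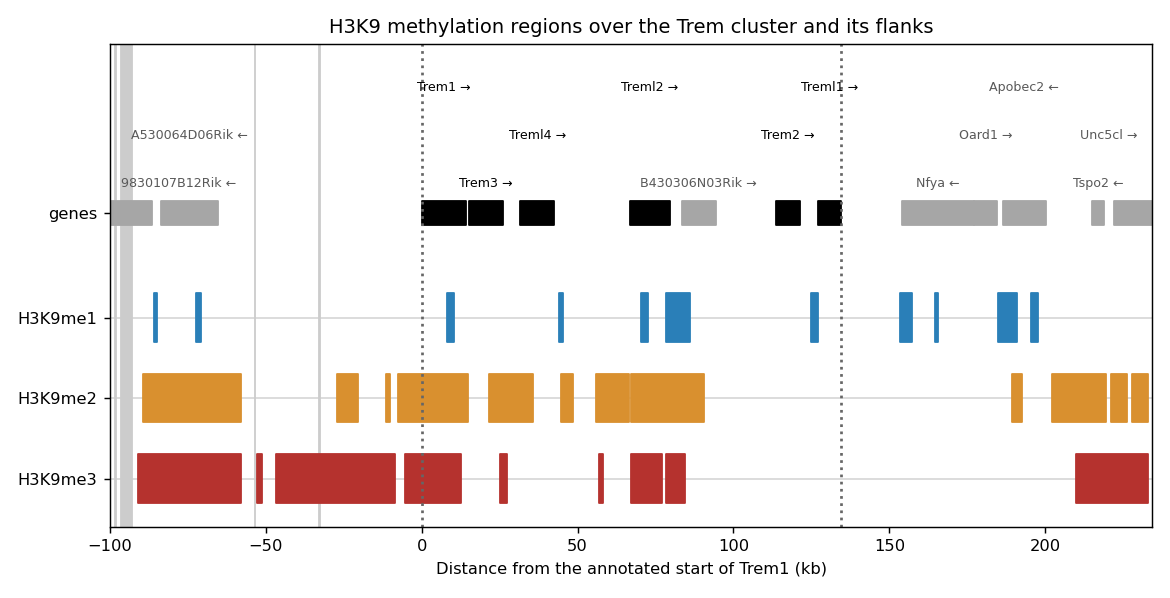
Regions of the 3 marks over the Trem cluster and 100 kb on either side, drawn by distance from the annotated start of Trem1 in kb. Black boxes are the 6 Trem genes, dark grey boxes other protein-coding genes, arrows the strand, dotted lines the cluster ends and light grey bands stretches of unknown sequence. H3K9me2 and H3K9me3 stop between Treml2 and Trem2, and H3K9me2 returns after 99.0 kb and H3K9me3 after 125 kb.

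Trem1, which amplifies inflammatory responses of neutrophils and monocytes, was the most completely covered of the 6 genes. Its body (chr17:48232768-48246924, plus strand, 14.2 kb) lay 100% within an H3K9me2 region and 88.2% within an H3K9me3 region. The 5′ window of 1 kb either side was filled by both marks, 2001 of 2001 bp each. The H3K9me2 region extended from 48225001 to 48247500 and so began upstream of the gene and ended just behind it. The H3K9me3 region, from 48227251 to 48245250, left the last part of the gene free. All 4 exon blocks of Trem1 (overlapping exons merged) met both marks, but H3K9me3 covered 44.1% of the exonic bases and 100% of the intronic ones. H3K9me1 reached 15.9% of the body in 1 region between 7.98 kb and 10.2 kb from the 5′ end, inside the stretch that carried the other marks. A processed pseudogene inside Trem1 on the opposite strand, AC241601.2, had all 3 marks at its start, which it shares with the Trem1 regions.

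Trem3 encodes a DAP12-coupled receptor of mouse macrophages and had H3K9me2 on either side of its 5′ part. The H3K9me2 region that covers Trem1 ended 277 bp before the annotated 5′ end of Trem3, and this was the reason for its call, with 724 of 2001 bp covered. The start base itself was not covered. A further H3K9me2 region then took up the stretch from 6.47 kb to the end of the 11.1 kb gene (chr17:48247777-48258841), which amounted to 41.5% of the body and 2 of its 4 exon blocks. H3K9me3 covered 7.60% at the 3′ end, with the nearest region 2527 bp from the 5′ end. No H3K9me1 lay within the gene.

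Treml4, a receptor of macrophages and dendritic cells that binds dying cells, had the reverse arrangement. H3K9me2 filled its 5′ window (2001 of 2001 bp) and the first 4.21 kb of the gene (chr17:48264295-48275360), and the remainder of the 11.1 kb body was free, which left 38.0% covered. The region responsible, from 48254251 to 48268500, is the same one that covers the 3′ part of Trem3, and it spanned all of the 5.45 kb between the pair. Of the 5 annotated start sites of Treml4, 4 lay within H3K9me2 and the fifth, at 48272439, had none of the marks within 1 kb. H3K9me3 was not found in the body, and its nearest region was 4045 bp from the 5′ end. H3K9me1 was 12.5 kb away. H3K9me2 covered 2 of 6 exon blocks and no exon carried H3K9me1 or H3K9me3.

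Treml2 encodes TLT-2, a receptor found on B cells, T cells and macrophages, and its body resembled that of Trem1. H3K9me2 covered 96.1% and H3K9me3 84.6% of its 13.0 kb (chr17:48299498-48312533). Its 5′ end differed from that of Trem1. H3K9me2 regions stood on both sides of the annotated 5′ end, from 48288751 to 48299250 and from 48300001 to 48323250, and a single bin of 750 bp between them was not called. The 5′ end of Treml2 fell in that bin, 248 bp from the nearer region, so that 1251 of 2001 bp of the window were H3K9me2-positive. H3K9me3 began at 48300001 as well and covered 498 bp of the window. The first 2 of its 4 start sites, at 48299498 and 48299940, lay in the uncalled bin, and the other two, at 48300355 and 48300386, lay within both marks. H3K9me1 covered 27.1% of the body, the highest share among the 6 genes, in stretches from 3.50 kb to 5.75 kb and from 11.8 kb to the 3′ end.

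Trem2, the phospholipid- and lipoprotein-binding receptor of microglia and osteoclasts, was free of H3K9 methylation regions in its body (chr17:48346401-48354147, 7.75 kb) and around its 4 start sites. The nearest region of any kind was an H3K9me1 region 11.3 kb from the 5′ end. H3K9me2 was 23.2 kb and H3K9me3 29.2 kb away. No exon block of its 5 met a region. The lists give no score, so signal under the calling threshold would not be seen, and an uncalled gene is not shown to lack the mark.

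Treml1 encodes TLT-1, a receptor of platelets and megakaryocytes whose tail carries an inhibitory motif. An H3K9me1 region from 48357751 to 48360000 covered 1085 of 2001 bp around its 5′ end and ran 85 bp into the gene (chr17:48359916-48367176, 7.26 kb), which is 1.17% of the body. The rest of the gene had no region. H3K9me2 and H3K9me3 were 36.7 kb and 42.7 kb from the 5′ end. Treml1 thus had the mark that the other 5 start sites lacked and none of the marks that 4 of them carried.

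**Figure D2:**
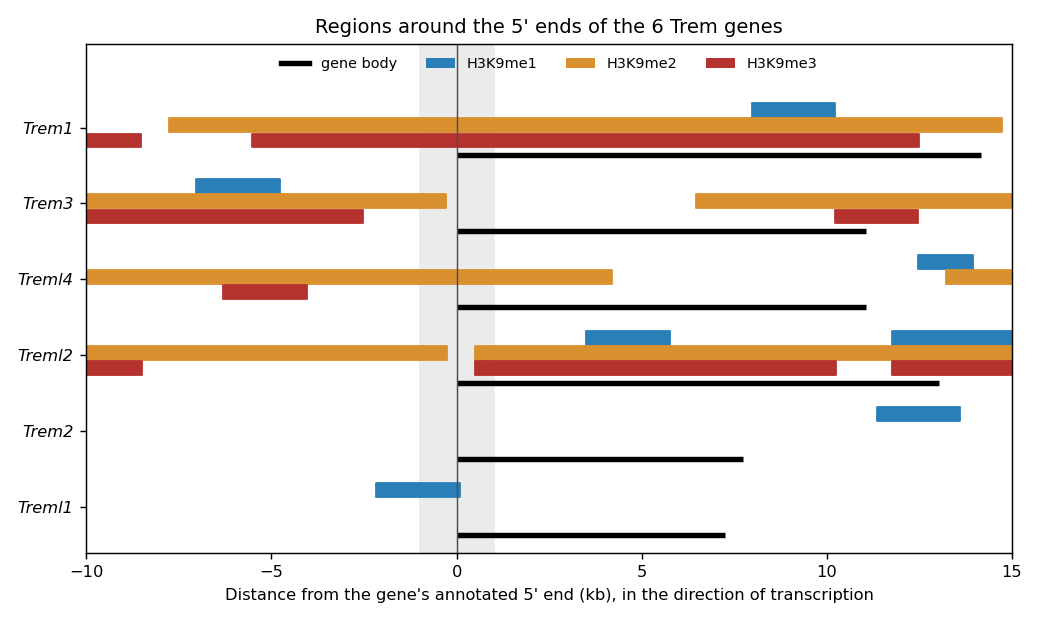
Regions around the annotated 5′ end of each Trem gene, by distance in kb in the direction of transcription. The grey band is the window of 1 kb either side and black lines are gene bodies, all shown whole. The 5′ ends of Trem1 and Treml4 lie inside H3K9me2, that of Trem3 lies 277 bp behind a region, that of Treml2 lies between regions, and Trem2 has no region before 11.3 kb.

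**Figure D3:**
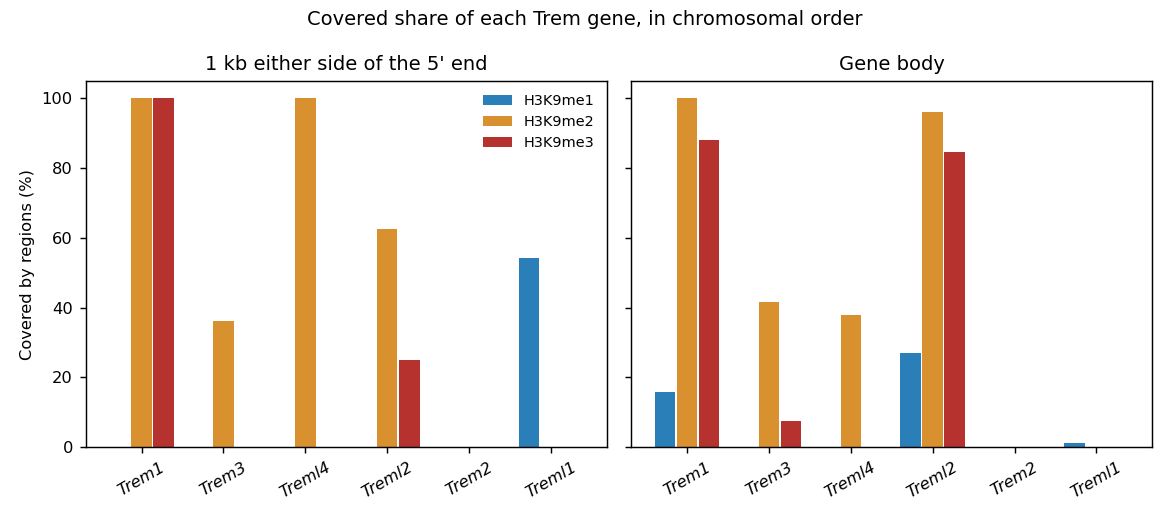
Percent of bases covered by each mark in the window of 1 kb either side of the 5′ end and in the gene body, for the 6 genes in chromosomal order; absent bars are 0%. H3K9me2 fills the window of Trem1 and Treml4 and over 90% of the bodies of Trem1 and Treml2.

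The sequences just upstream of 3 of the genes show what the starts with H3K9me2, with no mark and with H3K9me1 look like. They were read from GRCm38.p6 on the plus strand, 5′ to 3′, and end before the earliest start of the annotations used. CpG dinucleotides, the sites of DNA methylation, are in capitals. The Treml4 stretch (chr17:48264045-48264199, 155 bases) lay 100% within H3K9me2, the Trem2 stretch (chr17:48346151-48346400, 250 bases) within no mark and the Treml1 stretch (chr17:48359666-48359915, 250 bases) 100% within H3K9me1.
Treml4: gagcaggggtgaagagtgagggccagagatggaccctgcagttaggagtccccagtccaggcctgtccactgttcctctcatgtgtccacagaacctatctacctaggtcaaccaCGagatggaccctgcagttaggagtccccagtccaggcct
Trem2: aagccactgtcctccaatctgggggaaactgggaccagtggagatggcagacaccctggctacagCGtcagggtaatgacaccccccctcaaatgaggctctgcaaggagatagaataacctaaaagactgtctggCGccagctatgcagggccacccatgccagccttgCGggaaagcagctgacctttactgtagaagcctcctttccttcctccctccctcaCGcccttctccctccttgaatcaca
Treml1: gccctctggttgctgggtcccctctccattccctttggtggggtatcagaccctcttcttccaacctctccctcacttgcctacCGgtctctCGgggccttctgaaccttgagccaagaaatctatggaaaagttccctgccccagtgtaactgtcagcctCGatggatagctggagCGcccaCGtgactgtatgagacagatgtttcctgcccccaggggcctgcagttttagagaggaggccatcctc
The Treml4 stretch held 1 CpG, that of Trem2 held 4 and that of Treml1 held 5. Over 32851 RefSeq promoters, the 250 bases upstream of the start held a median of 6 CpG, and 92.1% had at least 1. At most 4 CpG were found in 44.4% and at most 5 in 49.6% of them, so the Trem2 and Treml1 stretches were near the middle of the range. At most 1 CpG was found in 18.8%, but the Treml4 stretch is shorter than the promoters in this count. It also contains a direct repeat of 40 bases, whose copies lie at 48264070-48264109 and 48264161-48264200, the last base of the second copy being outside the printed stretch. Longest repeated stretches in the other 5′ windows of 2001 bp ranged from 15 bases in Trem2 to 74 bases in Treml2, and at Trem1, Treml2, Trem2 and Treml1 their copies overlapped, as in a simple tandem repeat. Reads from such sequence can be hard to place, and what part this had in the calls was not tested.

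Low CpG content was common to all 6 genes, whatever mark their start carried. In the window of 1 kb either side of the 5′ end, the ratio of observed to expected CpG was 0.131 for Treml4, 0.139 for Trem2, 0.149 for Treml2, 0.181 for Treml1, 0.182 for Trem1 and 0.194 for Trem3. All 6 were below the lower quartile of the chromosome 17 protein-coding genes, which was 0.202, and the median there was 0.438. GC content was ordinary, 48.2% to 52.5% in the Trem windows with a chromosome median of 52.0%. The 6 windows held 16 to 25 CpG, with a chromosome median of 58. Genes of chromosome 17 with H3K9me2 alone at their start, 18 in number with Trem3 and Treml4 among them, had a median ratio of 0.125. The 420 genes with H3K9me1 alone had 0.50 and the 418 genes with no mark had 0.494, so the unmarked Trem2 and the H3K9me1-marked Treml1 were lower in CpG than most genes of their own class. Repeats took up 47.2% of the Trem1 window and 16.2% to 27.8% of the other 5, with a chromosome median of 14.5%.

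**Figure D4:**
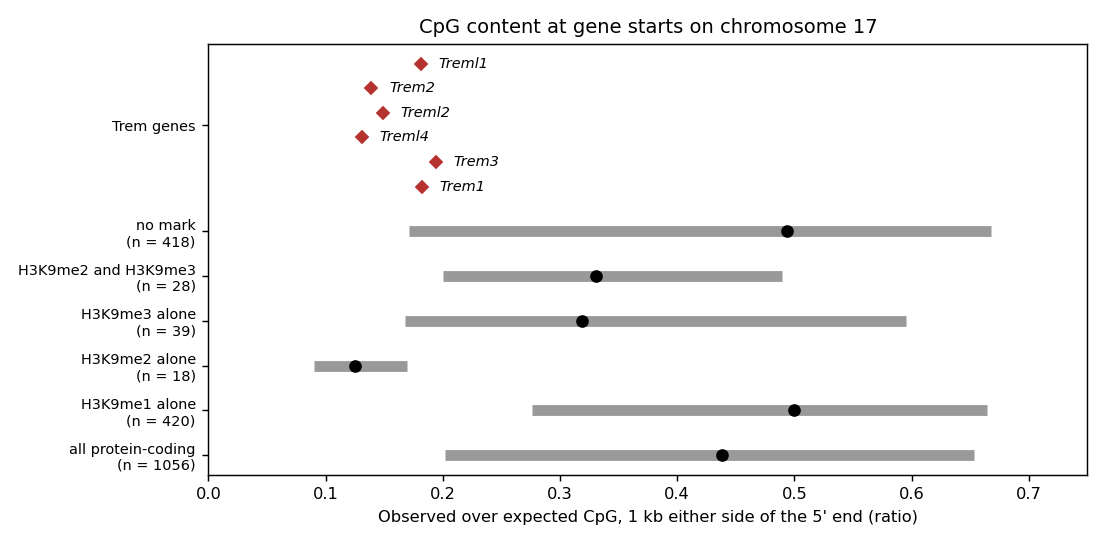
Ratio of observed to expected CpG within 1 kb of the 5′ end, for the 6 Trem genes (diamonds) and for chromosome 17 protein-coding genes, all together and in the classes of start-site marks that are named at the left (dot, median; bar, lower to upper quartile). The Trem genes lie between 0.131 and 0.194, below the lower quartile of all genes at 0.202.

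The other 16 genes on chromosome 17 with H3K9me2 alone at the start included the olfactory receptor genes Olfr1564, Olfr97, Olfr102 and Olfr107, the formyl peptide receptor genes Fpr3 and Fpr-rs4, and Adgre1, which encodes the macrophage surface protein F4/80. These examples were picked after their marks were seen, and no enrichment of a family was tested. Also among the 16 were Cyp4f15, Zfp811, Actl9 and Mpnd. In this class H3K9me2 covered from 0% (Mpnd) to 100% (Fpr-rs4) of the body, with 41.5% in Trem3 and 38.0% in Treml4. The class is defined at start sites only. H3K9me3 covered 73.9% of the body of Cyp4f15, 59.3% of Adgre1 and 31.3% of Fpr3. It covered 0% of the other genes named here, 0% of Treml4 and 7.60% of Trem3.

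The marks overlapped within the cluster. Without flanks, H3K9me2 covered 49.5% of the bases, H3K9me3 23.8% and H3K9me1 11.7%, and any of the marks 51.7%. All 32.0 kb of H3K9me3 were also H3K9me2 (100%), whereas 48.1% of the H3K9me2 bases were also H3K9me3. Of the H3K9me1 bases, 81.0% were also H3K9me2. The largest combination was H3K9me2 alone, with 32.2 kb or 24.0% of the cluster, followed by H3K9me2 with H3K9me3 at 21.5 kb and all 3 marks at 10.5 kb. H3K9me1 alone took 3.0 kb. Each list had 5 regions that met the cluster. Those of H3K9me2 were the widest, with a median of 14.2 kb and a maximum of 23.2 kb, compared with medians of 6.0 kb for H3K9me3 and 2.25 kb for H3K9me1.

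Division of the cluster behind Treml2, chosen after the values were seen, separates the genes with H3K9me2 from those without. From Trem1 to the end of Treml2, over 79.8 kb, H3K9me2 covered 69.9% and H3K9me3 34.2%. From Trem2 to the end of Treml1, over 20.8 kb, both covered 0%. H3K9me1 did not follow this division, with 9.13% in the first stretch and 10.8% in the second. The 33.9 kb between Treml2 and Trem2 held the last H3K9me2 region, which ended at 48323250, inside B430306N03Rik.

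Trem2 and Treml1 lie in a gap of 99.0 kb without H3K9me2 or H3K9me3, from 48323251 to 48422250. Nfya, which encodes a subunit of the CCAAT-binding factor NF-Y, and Oard1 lie whole in the same gap. Of 2073 such gaps between regions on chromosome 17, 173 were at least as long, and the median gap was 7.50 kb. For H3K9me3 by itself the gap was 125 kb. When H3K9me1 was included it shrank to 34.5 kb and held Trem2 as its only complete protein-coding gene, and 288 of 3824 such gaps were at least as long. The gaps were picked because they hold these genes, and a long gap is more likely to hold a gene than a short one. The counts of gaps are therefore a description and do not show that the gaps around these genes are unusual.

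Other genes of the same receptor group, before Trem1 or inside the cluster, carried the marks as well. A530064D06Rik, with the RefSeq synonyms pdctrem and Trem4, lay upstream of Trem1 on the minus strand, and H3K9me2 and H3K9me3 each covered 100% of its body. 9830107B12Rik (Trem5) had all 3 marks at its start sites, with H3K9me3 on 56.4% and H3K9me2 on 49.2% of the body. B430306N03Rik (Treml6), between Treml2 and Trem2, also had all 3 at its start sites, and it was the only one of these genes whose 5′ window was filled by H3K9me1 (2001 of 2001 bp). These genes were not in the list of 6, and with them the last gene with H3K9me2 before Trem2 is B430306N03Rik.

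The flanks differed from each other. Repeats took up 44.7% of the 100 kb before Trem1 and 26.1% of the 100 kb behind Treml1. All stretches of unknown sequence in the window lay before Trem1. What part this had in the calls was not tested. The 100 kb before Trem1 was 81.5% covered by H3K9me3, 49.5% by H3K9me2 and 2.34% by H3K9me1. The 100 kb behind Treml1 had 23.2%, 30.8% and 12.8%, respectively. In the latter, Oard1 had no mark, Nfya had H3K9me1 at 1 of its 12 start sites but not at its 5′ end, and the antisense gene AC166164.1 had H3K9me1. Apobec2, in whose body H3K9me2 came back (21.9% covered), had no mark at its start sites. Tspo2 and Unc5cl each had H3K9me2 and H3K9me3 at their start sites. The 5′ ends of Nfya, at 48409906, and Oard1, at 48410014, lie so close that their windows are largely the same sequence. These windows held 147 and 146 CpG, many more than any Trem window. Trem2 thus shares its gap with this CpG-rich stretch but not its composition. A pseudogene in the left flank, CAAA01087686.1, had H3K9me3.

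With both flanks, the window of 334 kb was 43.8% covered by H3K9me2, 40.4% by H3K9me3 and 9.31% by H3K9me1. Chromosome 17 was tiled with 275 windows of this length for comparison. Of these, 36 had a higher H3K9me2 share, 56 a higher H3K9me3 share and 151 a higher H3K9me1 share. The median window had 5.83% H3K9me2, 8.97% H3K9me3 and 15.5% H3K9me1. The neighbourhood of the Trem genes was thus above the upper quartile of windows for H3K9me2 (19.5%) and H3K9me3 (31.1%), and below the median for H3K9me1. Of the 134 kb of H3K9me3 in this window, 78.3 kb lay in the 100 kb before Trem1. The cluster without flanks was 23.8% covered by H3K9me3, compared with 22.4% of chromosome 17.

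**Figure D5:**
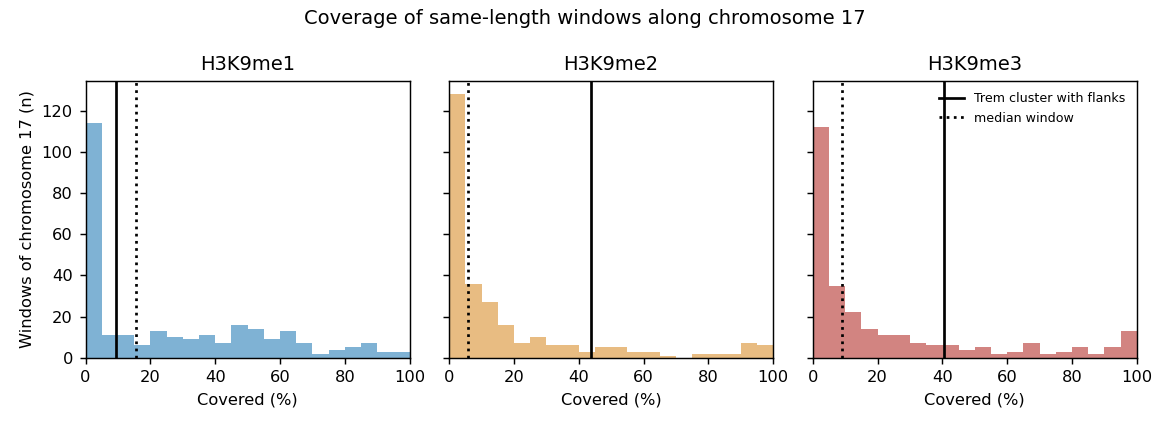
Covered percent of 275 windows of 334 kb along chromosome 17 for each mark, as counts of windows. Solid lines give the Trem cluster with flanks (9.31% H3K9me1, 43.8% H3K9me2 and 40.4% H3K9me3) and dotted lines the median window.

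A related family and an unrelated one were scored in the same way. The Cd300 genes on chromosome 11 are a tandem family of myeloid immunoglobulin-like receptors, and 0 of 12 had a mark at a start site. On chromosome 11, H3K9me1 met the start of 37.3%, H3K9me2 of 8.30% and H3K9me3 of 6.22% of the protein-coding genes, and 57.3% had no mark. The H2- genes of the major histocompatibility complex, on chromosome 17 like the Trem genes, had H3K9me2 at 12 of 34, H3K9me3 at 9 and H3K9me1 at 23. The shares of all protein-coding genes on chromosome 17 were 15.8%, 14.1% and 52.4%, respectively. H3K9me2 alone was present at 1 of the 34, H2-M5. The median H3K9me1 share of H2- gene bodies was 69.4%, compared with 0.585% over the 6 Trem genes and 35.7% over chromosome 17. For H3K9me2 the medians were 0% for the H2- genes, 39.7% for the Trem genes and 0% for the chromosome. No test was made of these differences, because neighbouring genes share regions.

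Of 27 genes listed for the Trem pathway and for the myeloid cells that use it, 11 had H3K9me1, 4 had H3K9me2 and 1 had H3K9me3 at a start site, and 16 had none. Over all annotated genes these shares were 21.4%, 11.5%, 12.0% and 71.2%. Among protein-coding genes only, H3K9me1 met a start site of 28.3%, H3K9me2 of 10.8% and H3K9me3 of 10.2%. The adaptor genes Tyrobp and Hcst were free of marks. Among the 4 ligand genes, Clu, which encodes the lipid carrier clusterin, had H3K9me1 and H3K9me2. The nearest regions of these marks lay 1518 bp and 3768 bp from its 5′ end, respectively, so the calls rest on another annotated start site. Of 12 genes for signalling proteins near the receptor, 6 had H3K9me1, namely the kinase gene Zap70, the exchange factor genes Vav1 and Vav2, the phospholipase gene Plcg1 and the phosphatase genes Inpp5d and Ptpn11. Only Zap70 and Vav1 had it at the 5′ end of the gene, and the other calls rest on another annotated start site. The nearest H3K9me1 was 12812 bp from the 5′ end of Inpp5d, 6451 bp from Plcg1, 1968 bp from Vav2 and 1104 bp from Ptpn11. Vav1, which is on chromosome 17 as well, was the only one of the 12 with H3K9me2 at a start site, and H3K9me2 covered 72.0% of its body. Plcg2 had no mark at a start site, but H3K9me1 covered 88.2%, H3K9me2 72.3% and H3K9me3 78.3% of its body. Card9 was the only gene of 3 in the Card9, Bcl10 and Malt1 branch with a mark, H3K9me1. The sheddase gene Adam10 had H3K9me1 and Adam17 had none. The nearest H3K9me1 was 12497 bp from the 5′ end of Adam10. Of the 4 myeloid transcription factor and growth factor receptor genes, Spi1 (PU.1) had H3K9me1 and H3K9me2, Irf8 had all 3 marks, and Cebpa and Csf1r had none. The calls count any annotated start site. From the 5′ end of the gene, the nearest H3K9me2 was 9611 bp away at Spi1, 8901 bp at Vav1 and 143 bp at Irf8. H3K9me3 was 3893 bp from the 5′ end of Irf8.

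The share of marked genes varied widely between chromosomes, which touches each of these counts. H3K9me1 met the start of 52.4% of the protein-coding genes on chromosome 17 but of 0.0989% on chromosome 7, where Tyrobp, Hcst, Apoe, Pglyrp1 and Cebpa lie. For H3K9me2 the shares were 15.8% and 0.494%. On 10 chromosomes, among them 3, 6, 7, 12, 13 and 18, H3K9me1 met fewer than 5% of starts. All 13 of the 27 genes that lie on these chromosomes were unmarked, Bcl10, Malt1, Adam17 and Csf1r included. Of the 14 genes on other chromosomes, 3 were unmarked at their start sites, namely Hmgb1, Grb2 and Plcg2. Of these, Plcg2 had all 3 marks in its body, Hmgb1 had 62.6% of its body covered by H3K9me1, and the body of Grb2 had none. For the 13, a state of the gene and a state of its chromosome in these lists cannot be told apart, and the part of the calling in this was not tested.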

How the data were processed

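ChIP-seq was performed by the authors on formaldehyde-fixed MEFs with 1 antibody for each mark. Per the methods of the study, the authors aligned the reads with bwa (version 0.7.1 per the labels) to mm10 (GRCm38) and called enriched regions with histoneHMM, a hidden Markov model over bins. The use of replicates and input in the calling, and its threshold, are not given in the sources used here. The 3 deposited lists hold coordinates and no other unit. The input had no list and was not analysed here.

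Coordinates were read as 1-based and inclusive, since 0 starts or ends then fell off the 750 bp grid. A gene counted as marked when the window of 1 kb either side of any annotated start site (GENCODE M21), or the body, met a region by at least 1 bp. Unknown (N) bases were left out of shares of windows, and repeats are the soft-masked bases. Exons were merged over transcripts. Promoters for CpG counts were RefSeq entries of 250 upstream bases, which 4 of the 6 genes had. With 1 list per mark, no test and no mean ± SD were possible, and counts over genes stand as background.

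Genes named are the 6 members, all annotated genes within 100 kb, comparison families as counts, and the pathway genes with a mark at a start. Unmarked pathway genes, H2-M5 and the other genes with H3K9me2 alone were named after their values were seen. The members and lists were chosen with earlier results of these data known. Coverage, start-site calls and distances were tested on simulated data, with 0 mismatches in 3000 recounts. Python 3.11.15, NumPy 2.4.6 and Matplotlib 3.10.9 were used. Region width, joining of regions, window size, overlap rule, flank length and coordinate reading were varied.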

Additional observations from a re-analysis of the deposited data

How the results depend on the processing

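No paired analysis was possible because each mark has 1 list for its 2 replicates, and for the same reason the settings that leave out a replicate or add a replicate block were not run. Of the counts and shares of the cluster under other settings, 72 stayed close to the reported value and 15 moved. The 72 include a fall in bodies met by H3K9me3 from 3 to 2. It occurred with regions of at least 5 kb and with at least 50% of a body covered. With regions of at least 5 kb, H3K9me1 fell to 0 start sites, 1 body, 5.58% of the cluster and 4.09% of the window with flanks. With 5 kb either side of a start site, 4 genes had H3K9me1 and 4 had H3K9me3, and no gene had H3K9me2 alone. When at least 50% of a body had to be covered, 0 genes had H3K9me1 and 2 had H3K9me2. Flanks of 50 kb gave 35.2% H3K9me2 and 32.3% H3K9me3, and flanks of 200 kb gave 48.3% H3K9me3. From Trem1 to Treml2 alone the shares were 69.9% H3K9me2 and 34.2% H3K9me3, and from Trem2 to Treml1 both were 0%. H3K9me2 was at the start sites of 4 genes in the settings of region width, joining, window and annotation, except for 3 with the start base alone and with 50% of the window, where Trem3 was not called. With Treml4 left out, a setting added after the data were seen, it was at 3 of 5. Trem2 had no mark in any of these settings, nor with RefSeq starts, a setting added after the data were seen. In the bodies, regions of at least 5 kb left 0% H3K9me1 in Trem1, 9.84% in Treml2 and 0% H3K9me3 in Trem3. The cause of these changes is the setting's own construction, which drops short regions or alters the bases counted. With no depth per region, the lists cannot show weak enrichment.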
